A study of Mus musculus with 21 samples.

Results

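The genes described here are Trp53, which encodes the transcription factor p53, and 9 genes that p53 is known to switch on: Cdkn1a, Mdm2, Ccng1, Sesn2, Zmat3, Aen, Phlda3, Trp53inp1 and Btg2. They were chosen by name from a deposited expression table of mouse EL4 cells, which lists 21844 gene symbols. Of the 10 members, 9 had a row of their own. Zmat3 appeared only in a row joined with the non-coding gene 4930429B21Rik, so the value of that row belongs to both. Phlda3 was listed at 0 in every library, and the other 9 members were among the 9898 genes with a mean of 1 RPKM or more that were tested.

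EL4 is a T lymphoma line derived from C57BL/6 mice. Libraries were made from poly(A) RNA of EL4 cells that carried an shCTCF hairpin, named for the chromatin insulator protein CTCF, or an shLuc hairpin, named for luciferase and used here as the control. There were 2 libraries per hairpin, numbered 2 and 3 in the table. Both groups share the line, the strain and the culture medium. The study asked how loss of CTCF affects gene expression. The labels name 1 hairpin per target, and no genotoxic treatment is named for either group. They do not say whether the libraries of a hairpin came from separate cultures, so the spread behind each p-value may be technical. With 2 libraries per hairpin an exact two-sided permutation test cannot give a p below 0.333, and single genes were therefore tested only in the model across all genes.

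p53 is held at a low level in unstressed cells by MDM2, a ubiquitin ligase that marks it for degradation. Because Mdm2 is itself a p53 target, the pair forms a negative feedback loop. When DNA is damaged p53 escapes MDM2, mostly through changes to the protein and not to its RNA, and it binds paired decamer motifs near genes that stop the cell cycle, repair DNA or cause cell death. In thymocytes and T lymphomas p53 is a well known tumour suppressor and a mediator of death after irradiation.

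RefSeq promoter windows of 300 bases, 250 before to 50 after a start site on the GRCm38.p6 build, were given for 8 members, in 10 windows. Zmat3 and Trp53inp1 had no window. Each window was searched for the p53 consensus, a 20-base pair of abutting decamers without a spacer that reads the same on both strands, with the central C and G of both decamers intact and up to 3 mismatches elsewhere. A match was found in 5 of the 10 member windows, against 1.38% of all 32851 windows. With at most 1 mismatch it was found in 2 member windows, against 0.067% of all windows. The members were chosen as p53 and its known targets, so this comparison with all windows is not independent of that choice. The Aen match is counted in both of its windows. The matches are descriptions of letters and not of binding. The 250 bases before the start site are shown for the 2 promoters that held the closest matches, with the match in capitals. The Cdkn1a match lies 51 to 32 bases before the upstream of the gene's 2 start sites, at chr17:29090928-29090947 on the plus strand. The Ccng1 match lies 195 to 176 bases before the start, at chr11:40755462-40755481 on the minus strand. Each had 1 mismatch.
Cdkn1a (chr17:29090729-29090978, plus strand): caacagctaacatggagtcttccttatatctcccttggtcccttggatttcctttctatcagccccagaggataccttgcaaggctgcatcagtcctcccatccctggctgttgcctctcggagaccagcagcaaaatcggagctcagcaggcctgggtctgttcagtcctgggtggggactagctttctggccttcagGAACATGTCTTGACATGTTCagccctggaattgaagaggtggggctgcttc
Ccng1 (chr11:40755287-40755536, minus strand): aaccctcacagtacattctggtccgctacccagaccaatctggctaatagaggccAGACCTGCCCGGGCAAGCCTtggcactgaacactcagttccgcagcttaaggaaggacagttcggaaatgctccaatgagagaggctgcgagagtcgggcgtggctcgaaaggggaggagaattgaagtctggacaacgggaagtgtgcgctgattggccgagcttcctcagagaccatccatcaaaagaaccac

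Trp53 and Aen held weaker matches, each with 3 mismatches, shown in capitals, that of Trp53 with 10 bases on either side. The match in Trp53 lies 75 to 56 bases before its start, at chr11:69580284-69580303 on the plus strand. The match in Aen lies 10 to 29 bases after the first of its 2 start sites, at chr7:78895937-78895956 on the plus strand, and falls in both Aen windows.
Trp53: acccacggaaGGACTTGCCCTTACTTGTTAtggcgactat
Aen: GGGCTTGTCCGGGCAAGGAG

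The windows of Btg2 and Sesn2, the 2 members with the largest differences between the hairpins, held no match to the p53 consensus, as did those of Mdm2 and Phlda3. Their 250 bases before the start are shown with the short promoter motifs CCAAT and GGGCGG in capitals, on either strand, so that ATTGG and CCGCCC are the same motifs read from the other strand. The Btg2 window holds 2 CCAAT and 3 GGGCGG motifs, of which 2 GGGCGG motifs overlap. The Sesn2 window holds 2 CCAAT motifs and 1 GGGCGG motif. Across all windows CCAAT was present in 37.4% and GGGCGG in 35.7%. In the members' windows CCAAT was present in 7 of 10 and GGGCGG in 6 of 10. The Btg2 window was 72.0% G and C, against a median of 52.7% over all windows. That of Phlda3 was close to it, at 71.7% and also with 3 GGGCGG motifs. The windows of Mdm2 and Sesn2 and the downstream window of Cdkn1a were at 64.7%.
Btg2 (chr1:134079156-134079405, minus strand): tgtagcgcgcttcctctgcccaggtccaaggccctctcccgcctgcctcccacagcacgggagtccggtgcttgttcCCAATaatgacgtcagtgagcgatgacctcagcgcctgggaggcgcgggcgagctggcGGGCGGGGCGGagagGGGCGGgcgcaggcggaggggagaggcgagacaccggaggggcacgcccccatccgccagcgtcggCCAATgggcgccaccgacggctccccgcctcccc
Sesn2 (chr4:132510457-132510706, minus strand): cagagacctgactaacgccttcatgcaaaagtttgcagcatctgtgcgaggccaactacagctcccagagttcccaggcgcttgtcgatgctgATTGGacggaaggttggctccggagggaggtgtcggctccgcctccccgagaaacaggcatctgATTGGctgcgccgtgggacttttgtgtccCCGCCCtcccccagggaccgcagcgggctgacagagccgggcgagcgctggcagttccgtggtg

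Expression is given as the deposited RPKM, a read density that the authors scaled by gene length and library depth. Changes are differences of log2(RPKM + 1), shCTCF minus shLuc, which understate the change of low genes, and they were tested with limma across all 9898 genes with Benjamini-Hochberg adjustment. The values imply library sizes of 5240362 and 6133046 reads for shLuc and of 4346709 and 5768563 reads for shCTCF. For a gene 1 kb long, 1 read was then worth between 0.163 and 0.230 RPKM. Ctcf, the target named by the hairpin, stood at 49.0 and 50.9 RPKM in the shLuc libraries and at 26.5 and 26.4 RPKM in the shCTCF libraries. Its log2 change was −0.89 (SE 0.08, limma adjusted p = 0.0075), and its mean level fell by 47.0%. All 10 T cell markers were tested, and their summed level was 2704 and 2648 RPKM with shLuc and 2400 and 2353 RPKM with shCTCF. Of these, limma called 1 lower (Bcl11b, log2 change −0.58, limma adjusted p = 0.035), where 0.596% of all tested genes were called lower. The hairpins did not overlap for 7, all lower in shCTCF, where 19.9% of all tested genes were so. At an unadjusted p below 0.05 there were 5, all lower, where 14.1% of all tested genes were at that level in either direction. limma-voom called 2 of 7 lower, Cd5 and Thy1, where 2.57% of its genes were called lower. The part of this difference in the members' values was not tested. Markers of other blood cells were low. Ms4a1 and Pax5 of B cells and Cd14, Elane and S100a8 of myeloid cells were listed at 0 in every library. Of 8 B cell markers 1 reached the level tested, with a log2 change of −0.48 (limma unadjusted p below 0.05). Of 9 myeloid markers with a row 2 did, at −0.19 and 0.76, the latter at a limma unadjusted p below 0.05. After adjustment limma called none of these. Summed over each list, the libraries ranged from 4.11 to 6.76 RPKM for the myeloid markers and from 1.17 to 1.47 RPKM for 6 erythroid markers. Of 8 fibroblast markers only Vim and Thy1, which T cells express too, reached the level tested.

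No p53 pathway member was called in limma without covariates when Ctcf was lowered. The 2 members with the largest differences, Sesn2 and Btg2, had shCTCF means 31.7% and 30.2% above those of shLuc. Of the 9 tested members, 0 passed a limma adjusted p of 0.05, where 1.29% of all tested genes did, 0.697% higher. At an unadjusted p below 0.05 there were 2 members, Sesn2 and Btg2, both higher, where 8.19% of all tested genes were higher at that level and 14.1% were so in either direction. A limma-voom fit to whole reads recovered from the RPKM values was added after the data were seen and could test 4 members. It called 2 of them higher, again Sesn2 and Btg2, where 5.47% of its 6653 genes were called and 2.90% were called higher. With quantile normalization the same fit called 1, Btg2. With the library number as a replicate block, limma called 2 members higher, again Sesn2 and Btg2. That fit called 5.12% of all tested genes, 2.97% higher. The 2 shCTCF libraries were both above the 2 shLuc libraries for 5 of the 9 members, where 24.1% of all tested genes showed this. They were both below for 1 member, where 19.9% did. A positive log2 change was found for 8 of 9 members, against 53.3% of all tested genes, but for 6 of 9 after quantile normalization, where 48.8% of all genes were positive, and for 7 of 9 after median centring. The median log2 change was 0.10 over the members and 0.01 over all tested genes.

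**Figure D1:**
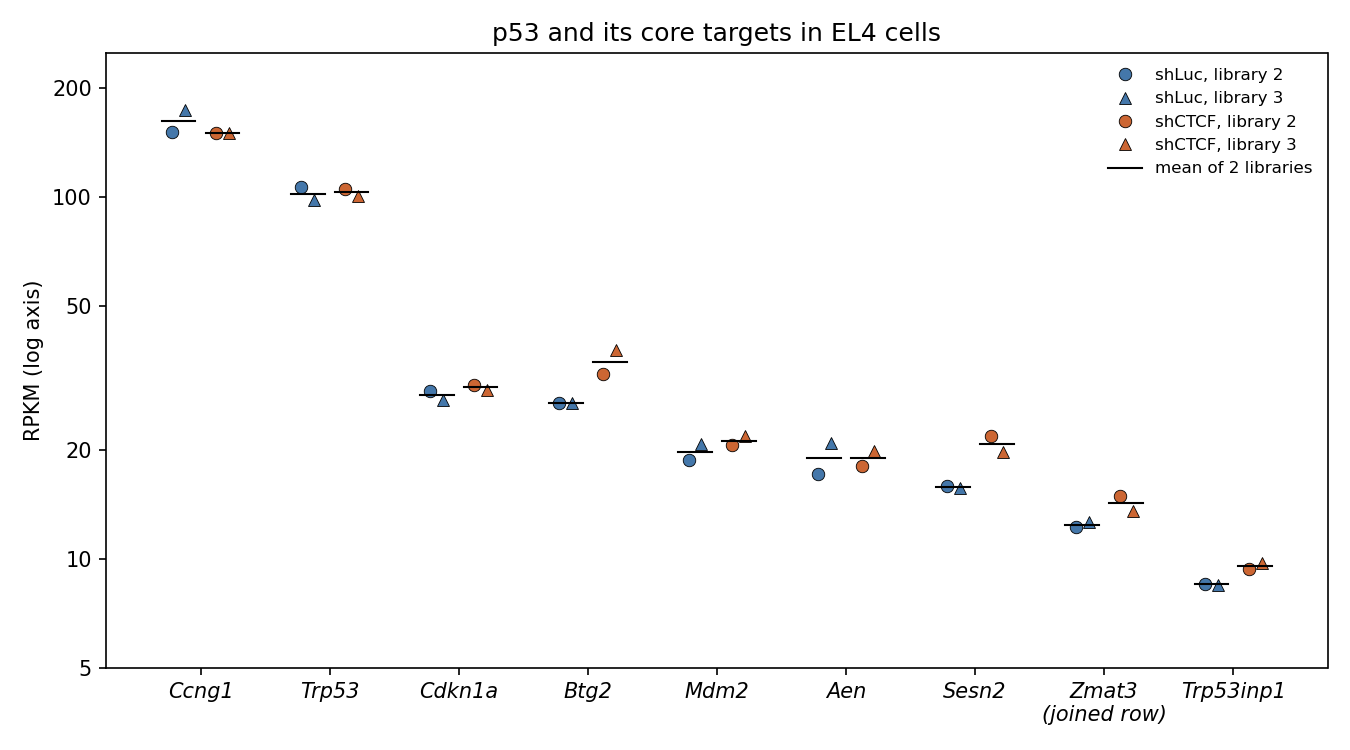
RPKM of each member in the 4 libraries (log axis, 1 point per library, colour for the hairpin, shape for the library number, bars for the mean of 2 libraries). The members span 8.47 RPKM for Trp53inp1 to 174 RPKM for Ccng1, and the shCTCF points lie apart from and above the shLuc points for Sesn2 and Btg2, whereas those of Trp53, Mdm2 and Aen overlap.

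In control cells the members differed 19.1-fold in level per length. Ccng1 was highest, at 163 ± 16.1 RPKM (SD, n = 2), which placed it at the 96.4th percentile of the tested genes. Trp53 followed at 102 ± 6.07 RPKM, the 92.8th percentile, a ratio of 1.59 below Ccng1. A gap of 3.61-fold separated Trp53 from Cdkn1a, the first of a middle group in which Btg2, Mdm2, Aen, Sesn2 and Zmat3 followed in that order, around the median of 17.6 RPKM of all tested genes. Mdm2 and Aen overlapped over the shLuc libraries, whereas every other neighbouring pair in this order was apart. Trp53inp1 was lowest at 8.50 ± 0.0439 RPKM. With shCTCF the order changed in 2 places: Btg2 stood above Cdkn1a without overlap, and Sesn2 stood above Aen with overlap.

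Trp53 RNA did not differ between the hairpins beyond the spread of the libraries. It stood at 106 and 97.8 RPKM with shLuc and at 105 and 100.5 RPKM with shCTCF, so the groups overlapped. The log2 change was 0.01 (SE 0.08, 95% confidence interval −0.17 to 0.20, limma adjusted p = 0.97), and its sign turned to −0.01 under quantile normalization. The interval leaves room for a rise of up to 0.20 or a fall of up to −0.17 on this scale. Wrap53, a gene that overlaps the first exon of Trp53 on the opposite strand, stood below Trp53, at 13.1 and 12.6 RPKM with shLuc and 14.0 and 12.5 RPKM with shCTCF. No source used here states whether the counting used strand, so reads of this pair in the shared stretch cannot be told apart. The other p53 family genes, Trp63 and Trp73, were listed at 0 in every library.

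Mdm2 and Ccng1 are targets that act back on p53, Mdm2 as its ligase and Ccng1, cyclin G1, as a partner of a phosphatase that acts on MDM2. Mdm2 stood at 18.8 and 20.7 RPKM with shLuc and at 20.6 and 21.8 RPKM with shCTCF. The groups overlapped by a narrow margin, and the change was 0.10 on the log2 scale (SE 0.10, 95% confidence interval −0.12 to 0.32, limma adjusted p = 0.73). It was 0.03 without shLuc library 2, 0.17 without shLuc library 3 and 0.058 without shCTCF library 3. These values rest on 298 and 385 reads with shLuc and on 271 and 381 reads with shCTCF over a model of 3027 bases. Ccng1 stood at 151 and 174 RPKM with shLuc and at 150.4 and 149.8 RPKM with shCTCF. It was the only member with both shCTCF libraries below both shLuc libraries, by a narrow margin for the lower shLuc library. Its log2 change was −0.11 (SE 0.09, 95% confidence interval −0.31 to 0.09, limma adjusted p = 0.65). The size of this difference rested on 1 control library: it was −0.01 without shLuc library 3 and −0.21 without shLuc library 2.

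Cdkn1a encodes p21, the inhibitor of cyclin-dependent kinases through which p53 stops the cell cycle. It stood at 29.0 and 27.5 RPKM with shLuc and at 30.2 and 29.3 RPKM with shCTCF. Both shCTCF libraries were above both shLuc libraries by a narrow margin. The log2 change was 0.07 (SE 0.09, 95% confidence interval −0.12 to 0.27, limma adjusted p = 0.78). It was 0.035 without shLuc library 3 and 0.11 without shLuc library 2. Its upstream promoter holds 1 of the 2 closest p53 matches, shown above.

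Btg2 encodes an antiproliferative protein that recruits the CCR4-NOT deadenylase to messenger RNA and is known to maintain quiescence in T cells. It stood at 26.99 and 26.87 RPKM with shLuc and at 32.4 and 37.7 RPKM with shCTCF. The 2 control libraries were nearly equal and both shCTCF libraries were higher, with library 3 the higher of the pair. Means were 26.9 ± 0.085 and 35.1 ± 3.78 RPKM (SD, n = 2), a difference of 30.2%. On the log2 scale this was 0.36 (SE 0.10, 95% confidence interval 0.14 to 0.59), which did not pass in limma at an adjusted p of 0.14. Without shCTCF library 3 the log2 change was 0.26, and without shCTCF library 2 it was 0.47. The gene had 436 and 508 reads with shLuc and 434 and 671 reads with shCTCF. The limma-voom fit to those reads gave 0.38 (adjusted p = 0.011), and 0.37 (adjusted p = 0.032) with quantile normalization. Btg2 is also among the 435 rows of changed genes in the authors' deposited table, at place 364, with a log2 fold change of 0.38 and an FDR of 0.017.

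Sesn2 encodes sestrin 2, which curbs mTORC1 signalling when leucine is scarce and limits oxidative damage. It stood at 15.9 and 15.7 RPKM with shLuc and at 21.8 and 19.8 RPKM with shCTCF. The groups were apart, with both shCTCF libraries above the control libraries, which were nearly equal. Means were 15.8 ± 0.115 and 20.8 ± 1.45 RPKM (SD, n = 2), a difference of 31.7%. Its log2 change of 0.37 (SE 0.10, 95% confidence interval 0.15 to 0.60) was the largest among the members and did not pass in limma at an adjusted p of 0.13. It had 221 and 256 reads with shLuc and 252 and 303 with shCTCF. The limma-voom fit gave 0.39 (adjusted p = 0.028), and 0.36 (adjusted p = 0.071) with quantile normalization. The authors' deposited table lists Sesn2 at a log2 fold change of 0.38 and an FDR of 0.038, at place 403. These 2 genes are the only members in that table. Its FDR values imply that 22119 rows were tested, of which 1.97% are listed and 0.967% are listed as higher. Those rows include genes below the mean of 1 RPKM required here. By size, the difference of Sesn2 was at the 91.8th percentile of all tested genes and that of Btg2 at the 91.3rd.

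**Figure D2:**
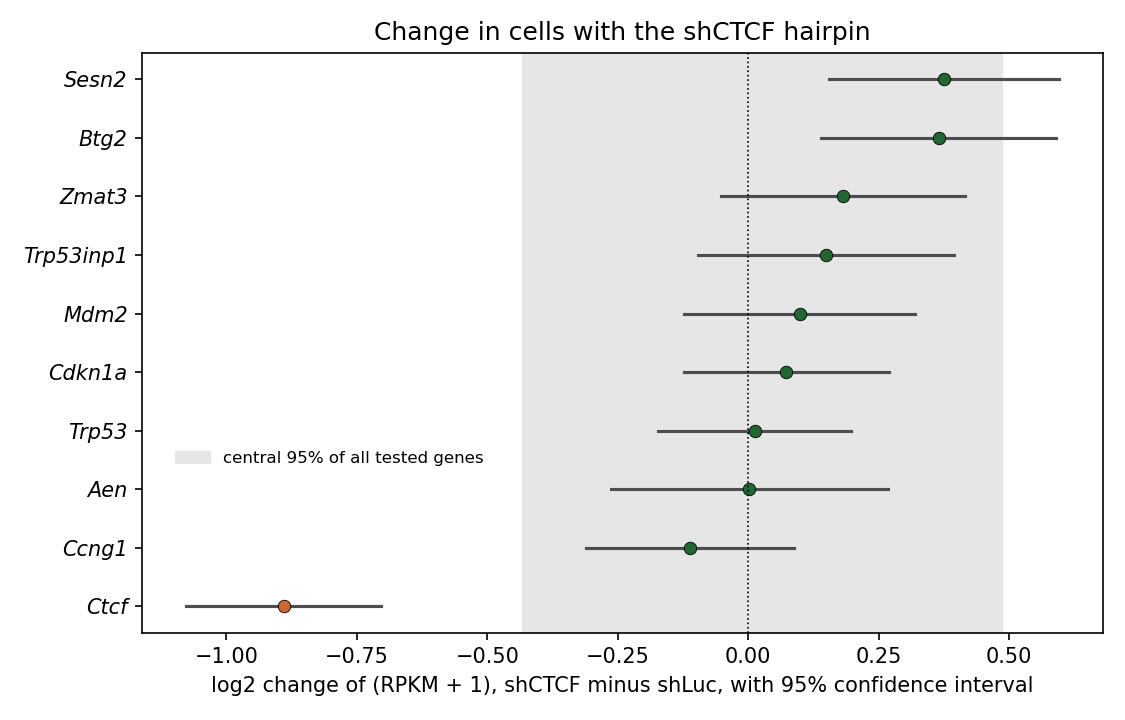
Log2 change of the 9 tested members (green) and of Ctcf (orange), shCTCF minus shLuc on log2(RPKM + 1), with 95% confidence intervals from limma (horizontal bars) and the central 95% of all 9898 tested genes shaded, −0.43 to 0.49. The intervals of Sesn2 and Btg2 lie above 0, those of the other 7 cross it, and every member's point, though not that of Ctcf, lies within the shaded range.

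Trp53inp1, Zmat3, Aen and Phlda3 act in the death and growth-arrest branches. Trp53inp1, a nuclear protein that promotes p53 phosphorylation and autophagy, stood at 8.53 and 8.47 RPKM with shLuc and at 9.34 and 9.71 RPKM with shCTCF. The groups did not overlap, and the log2 change was 0.15 (SE 0.11, 95% confidence interval −0.10 to 0.39, limma adjusted p = 0.61). The joined row of Zmat3, which encodes an RNA-binding zinc finger protein, stood at 12.2 and 12.6 RPKM with shLuc and at 14.9 and 13.6 RPKM with shCTCF. These groups were apart as well, at a log2 change of 0.18 (SE 0.10, 95% confidence interval −0.05 to 0.42, limma adjusted p = 0.50) that was 0.12 without shCTCF library 2, and the share of either gene in the row cannot be told apart.

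Aen encodes a nuclease that takes part in apoptosis after DNA damage. It stood at 17.2 and 20.9 RPKM with shLuc and at 18.1 and 19.9 RPKM with shCTCF. The shCTCF libraries fell between the 2 shLuc libraries, and library 3 was the higher of both pairs. The log2 change was 0.0019 (95% confidence interval −0.26 to 0.27, limma adjusted p = 0.998), with the sign turned under quantile normalization (−0.0015) and median centring (−0.0080). Phlda3, which encodes an inhibitor of AKT signalling, was listed at 0 in all 4 libraries, where 3 reads on a gene model of 1 kb would have been 0.489 to 0.690 RPKM. No fold can be given for it.

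Of the tested genes that set p53 activity limma called none, where it called 1.29% of all tested genes. Over all tested genes 14.1% had a limma unadjusted p below 0.05 and 53.3% a positive log2 change. limma-voom called 5.47% of its genes. Of 23 regulators (ligases, ribosomal proteins, kinases and others), 21 were tested and limma called 0, with 0 at an unadjusted p below 0.05 and 0 of 11 in limma-voom. Log2 changes were positive for 9 and negative for 12, with a median of −0.02 that was 0.014 without shLuc library 3 and 0.024 without shCTCF library 2. Rpl11, a ribosomal protein that binds MDM2, was the most abundant, at 235 and 225 RPKM with shLuc and 242 and 271 RPKM with shCTCF, a log2 change of 0.15 (limma adjusted p = 0.48). Rpl5, read in a row joined with Fam69a, stood at 172 and 190 RPKM with shLuc and 184 and 200.4 RPKM with shCTCF. Mdm4, the relative of Mdm2 that masks the activation domain of p53, stood at 26.1 and 32.1 RPKM with shLuc and at 24.3 and 28.5 RPKM with shCTCF, and the groups overlapped.

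Other p53 targets were grouped by what they do. For these lists and those below, limma called 1.29% of all tested genes and limma-voom called 5.47% of its genes. Of all tested genes 14.1% had a limma unadjusted p below 0.05, and 8.19% were also higher. A positive log2 change was found for 53.3% of all tested genes. Of 11 further arrest genes 8 were tested, limma called 0, and limma-voom called 1 of 5 (Ptprv, lower). At an unadjusted p below 0.05 there were 3, all lower: Sfn, Ptprv and the joined row of Plk3 and Tctex1d4. Their log2 changes were −0.52 (limma adjusted p = 0.19), −0.40 (limma adjusted p = 0.21) and −0.34 (limma adjusted p = 0.23), in that order. The share of either gene in that joined row cannot be told apart. Sfn had 61 and 61 reads with shLuc and 35 and 35 reads with shCTCF. The median log2 change of the list was −0.12. The hairpins did not overlap for 5 of the 8 that were lower in shCTCF, where 19.9% of all tested genes were so. They did not overlap for 2 that were higher, where 24.1% of all tested genes were so. The most abundant of them, Gtse1, a G2 protein that shuttles p53 out of the nucleus, stood at 55.1 and 50.8 RPKM with shLuc and at 50.6 and 47.6 RPKM with shCTCF.

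Of 15 apoptosis targets 12 were tested, and limma called 0, with 2 higher at an unadjusted p below 0.05 (Bax and Bbc3). limma-voom called 1 of 8, Bax, and 0 with quantile normalization. Perp, a membrane protein of p53-dependent death, stood at 388 and 423 RPKM with shLuc and at 425 and 439.7 RPKM with shCTCF, a log2 change of 0.09. Bax, which permeabilises mitochondria, stood at 104 and 93.1 RPKM with shLuc and at 119 and 124 RPKM with shCTCF. Its log2 change was 0.30 (SE 0.08, limma adjusted p = 0.16), and the groups did not overlap. Bbc3, which encodes PUMA and was singled out after its values were seen, stood at 3.09 and 2.97 RPKM with shLuc and at 4.66 and 5.79 RPKM with shCTCF, a log2 change of 0.62 (SE 0.15, limma adjusted p = 0.11). The values of Bbc3 rest on few reads, 16 and 18 with shLuc and 20 and 33 with shCTCF. Across the 12 tested genes 8 changes were positive and the median was 0.05.

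Repair and metabolic targets had medians near 0. All 9 DNA repair targets were tested, limma called 0, with 0 at an unadjusted p below 0.05 and 0 of 7 in limma-voom. Their median was 0.02, and −0.034 without shLuc library 2 and 0.079 without shLuc library 3. Pcna, the sliding clamp of DNA replication, stood at 215 and 213 RPKM with shLuc and at 209 and 218 RPKM with shCTCF. Of 15 metabolism and autophagy targets 11 were tested, limma called 0, with 0 at an unadjusted p below 0.05 and 0 of 8 in limma-voom. Their median was −0.0022.

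Downstream of p21, 2 groups were followed. Genes known to fall when p21 is induced, the cell cycle genes silenced through the DREAM complex, were all 18 tested. limma called 0, with 0 at an unadjusted p below 0.05 and 0 of 13 in limma-voom. Their log2 changes ran from −0.12 to 0.10 with a median of −0.0032, 9 positive and 9 negative. Top2a, the topoisomerase of dividing cells, stood at 266 and 286 RPKM with shLuc and at 271 and 272 RPKM with shCTCF. Mki67, the gene of the Ki-67 proliferation antigen, stood at 244 and 266 RPKM with shLuc and at 247 and 249 RPKM with shCTCF. For both, the shCTCF libraries lay between the shLuc libraries. Of the 11 cyclins and kinases that p21 binds, limma called 0, with 1 lower at an unadjusted p below 0.05 and 0 of 5 in limma-voom. That gene was Cdk6, a kinase of the G1 phase, at 186 and 193 RPKM with shLuc and 171 and 162 RPKM with shCTCF, a log2 change of −0.19 (limma adjusted p = 0.31).

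**Figure D3:**
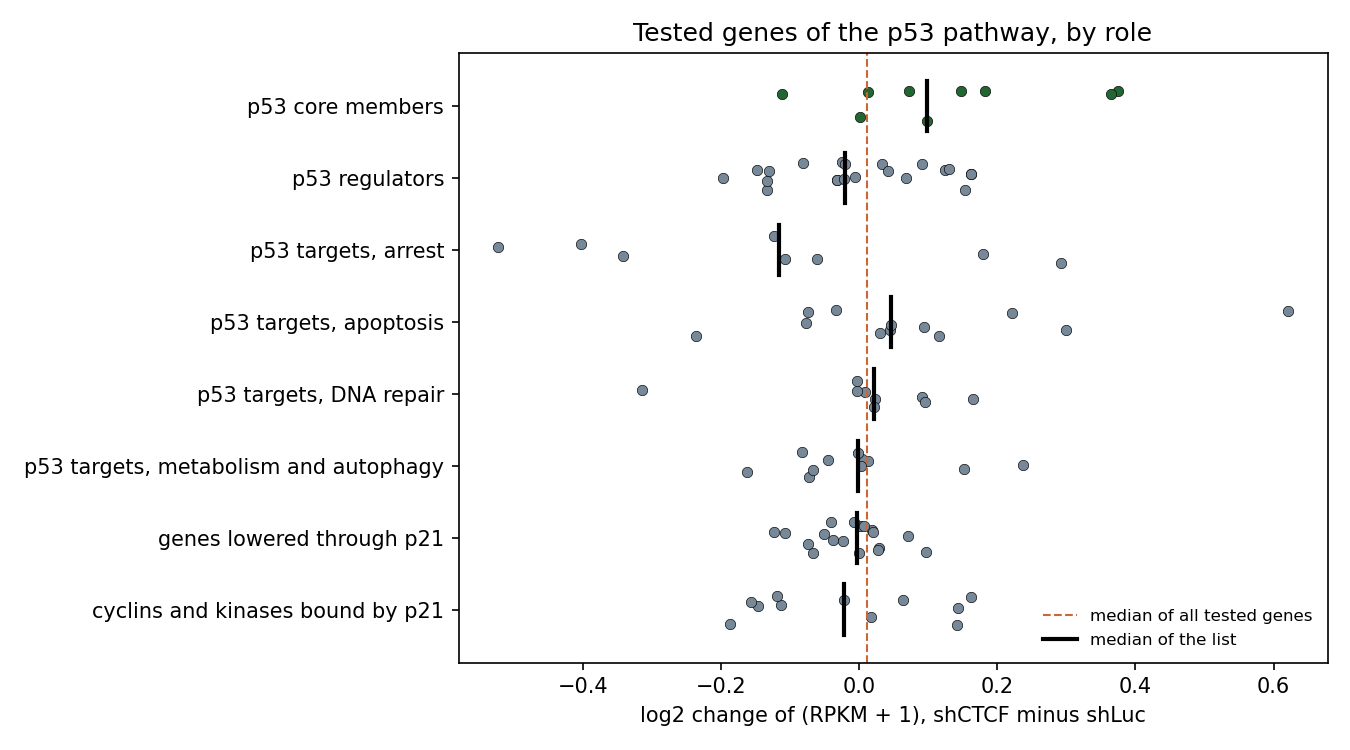
Log2 change of every tested gene in the lists around p53 (1 point per gene, with a bar for the median of the list and a dashed line for the median of all tested genes), shCTCF minus shLuc on log2(RPKM + 1). The medians lie between −0.12 for the arrest targets and 0.10 for the members, and the genes lowered through p21 form the narrowest group, from −0.12 to 0.10.

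Btg2 and Sesn2 also belong to other responses, and the genes of those responses were listed. Btg2 is known as an immediate-early gene. Of 22 immediate-early genes 15 were tested, limma called 0 higher and 2 lower, and 11 of the 15 log2 changes were positive. Over all tested genes limma called 0.697% higher and 0.596% lower, and 53.3% of log2 changes were positive. The 2 called immediate-early genes were Fos (log2 change −1.09, limma adjusted p = 0.0094) and Fosb (−1.24, limma adjusted p = 0.045), both subunits of AP-1. limma-voom called the same 2 lower, where 2.57% of its genes were called lower. At a limma unadjusted p below 0.05 this list held 3 higher and 2 lower. Sesn2 is known as a target of ATF4 in the integrated stress response. Of 15 genes of that list, Sesn2 included, 12 were tested and limma called 0, with 1 higher and 3 lower at an unadjusted p below 0.05. limma-voom called 2 of 8, Sesn2 higher and Mthfd2 lower, where 5.47% of its genes were called. With quantile normalization it called 0 of this list. Asns, asparagine synthetase, another ATF4 target, stood at 209.6 and 211 RPKM with shLuc and at 187 and 180.1 RPKM with shCTCF, a log2 change of −0.20 (limma adjusted p = 0.26).

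The members' relatives allow a comparison within families. Of 22 paralogues 15 were tested, limma called 0, with 3 higher and 1 lower at an unadjusted p below 0.05. limma-voom called Btg1 higher and Phlda1 lower of 13, where 5.47% of its genes were called. The median log2 change of the paralogues was 0.01. Btg1, the closest relative of Btg2 and also an antiproliferative factor of resting lymphocytes, stood at 9.95 and 11.3 RPKM with shLuc and at 14.7 and 15.2 RPKM with shCTCF. Its log2 change was 0.46 (SE 0.11, limma adjusted p = 0.093), beside 0.36 for Btg2. Tob1, of the same family, stood at 18.0 and 18.8 RPKM with shLuc and at 22.7 and 23.7 RPKM with shCTCF, a log2 change of 0.32 (SE 0.09, limma adjusted p = 0.16), whereas Tob2 was at −0.03. The groups did not overlap for Btg1, Btg2 and Tob1. Of the 15 tested paralogues, 6 were apart and higher in shCTCF, where 24.1% of all tested genes were so. Another 3 were apart and lower, where 19.9% of all tested genes were so.

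Among the sestrins, 3 levels can be set side by side. Sesn1, also a p53 target, stood at 15.3 and 16.4 RPKM with shLuc and at 15.2 and 16.8 RPKM with shCTCF. Sesn3, the most abundant sestrin, stood at 46.3 and 51.7 RPKM with shLuc and at 47.3 and 51.4 RPKM with shCTCF. Both had a log2 change of 0.01 against 0.37 for Sesn2, and a difference between the genes was not tested. Cdkn1b, the p27 relative of Cdkn1a, stood at 24.0 and 27.3 RPKM with shLuc and at 28.2 and 29.7 RPKM with shCTCF, a log2 change of 0.17 (limma adjusted p = 0.49). Cdkn1b was below Cdkn1a without overlap in shLuc and with overlap in shCTCF. Ccng2, a relative of Ccng1, was far lower than it, at 6.89 and 7.78 RPKM with shLuc and 7.84 and 9.04 RPKM with shCTCF. Phlda1, a relative of Phlda3, stood at 37.0 and 33.8 RPKM with shLuc and at 28.9 and 26.2 RPKM with shCTCF, a log2 change of −0.35 (limma adjusted p = 0.14). Trp53inp2, an autophagy factor related to Trp53inp1, stood at 10.4 and 9.41 RPKM with shLuc and at 12.6 and 12.7 RPKM with shCTCF, a log2 change of 0.32 (limma adjusted p = 0.22).

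**Figure D4:**
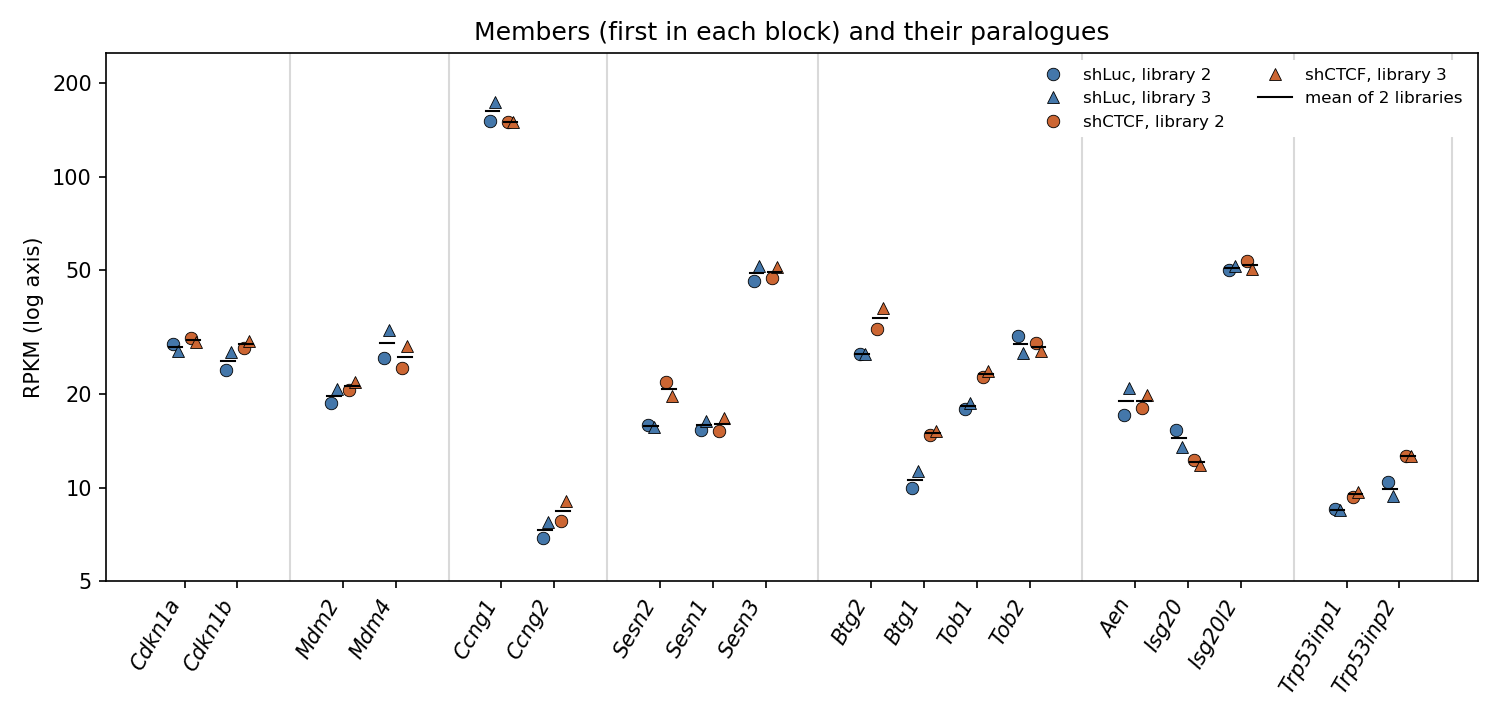
RPKM of 7 members, each first in its block, and their paralogues in the 4 libraries (log axis, colour for the hairpin, shape for the library number, bars for the mean of 2 libraries). Btg1, Btg2 and Tob1 each show both shCTCF points above both shLuc points, and so do Cdkn1a, Cdkn1b, Ccng2, Trp53inp1 and Trp53inp2. Sesn1 and Sesn3 overlap, whereas Sesn2 does not.

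The patterns of Trp53 and Cdkn1a over the libraries were shared by many genes. Likeness was measured as the Euclidean distance between log2(RPKM + 1) values centred on each gene's mean over the 4 libraries, among 8108 genes with a mean of 5 RPKM or more. The nearest to Trp53 were Rexo2 (distance 0.0064), Kctd5 (0.0068) and the joined row of 2410017P09Rik, Adcy3 and Cenpo (0.010). Within a distance of 0.1 of Trp53 there were 1036 genes. The nearest to Cdkn1a were Atp5b (0.0060), Tor3a (0.0096) and Ptpn11 (0.011), and 937 genes lay within 0.1. With 4 libraries from 1 line these distances single out no small set of genes.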

How the data were processed

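Expression of EL4 cells was taken from 4 poly(A) RNA libraries, 2 shLuc and 2 shCTCF, of the 21 samples in the series. Groups follow the titles. Reads were aligned with Bowtie2 to mm9, per the submitters' processing notes. No source used here names the counter or the annotation. The authors deposited RPKM per gene row, in which overlapping genes can share a row. Their deposited table of 435 rows adds a log2 fold change, a p-value and an FDR, and its RPKM equal those of the full table (tolerance 1e-06). The full table numbers the libraries 2 and 3, whereas the authors' table of 435 rows numbers columns with equal values 1 and 2. The titles also use 1 and 2, but columns were tied to a hairpin only.

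The row with the highest mean was used per symbol. Genes with a mean of 1 RPKM or more were tested with limma 3.58.1 in R 4.3.3 (eBayes with a trend) on log2(RPKM + 1), without covariates. Whole reads were recovered for 98.5% of 7035 single-transcript rows (relative tolerance 2e-10); rows that join transcripts, among them Trp53, Cdkn1a, Zmat3, Aen and Trp53inp1, gave none. These reads served depth and a limma-voom alternative (library sizes implied by the RPKM, mean of 10 reads or more), with and without quantile normalization. Figures and counts used Python 3.11.15.

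The members and the gene lists were chosen with earlier results of these data known. Named genes were Ctcf, all members, called genes and the 2 most abundant of each list, tested paralogues, and the 3 genes most like Trp53 and Cdkn1a; other genes named with values (Bbc3, Wrap53, and genes called only in limma-voom) were chosen after their values were seen. Lists were described by counts and medians, without a set test. Hi-C, ChIP-seq and untransduced EL4 samples were not used here.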

Additional observations from a re-analysis of the deposited data

How the results depend on the processing

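Against 69 genes called higher and 59 lower over all tested genes, no filter on low values gave 0 and 0, limma without a trend 33 and 27, limma-voom on recovered reads, added after seeing the data, 193 and 171, and limma-voom with quantile normalization 126 and 137. Leaving out 1 library in turn gave 0 to 49 higher and 0 to 35 lower. With the library number as a replicate block the counts were 294 and 213. The labels do not say what same-numbered libraries share beyond the number. The correlation of their deviations was 0.16 over 9898 genes and 0.18 over the 8109 with a mean of 5 RPKM or more. The number of p53 core members called was 0, and was 2 with the replicate block (Btg2, adjusted p = 0.036, and Sesn2, adjusted p = 0.042; 5.12% of genes called) 2 with limma-voom and 1 (Btg2) with its quantile normalization; in the other alternatives it was 0. Over all alternatives the log2 change of Btg2 ran from 0.26 to 0.47 and that of Sesn2 from 0.31 to 0.44. Trp53 and Aen turned sign under quantile normalization (−0.014 and −0.0015) and Aen under median centring (−0.0080). Without 1 library in turn, Trp53 ran from −0.048 (without shLuc library 3) to 0.073, with −0.022 without shCTCF library 2, and Aen from −0.13 (without shLuc library 2) to 0.14, with −0.063 without shCTCF library 3. The cause was not tested. Ctcf kept its direction (−0.92 to −0.86) but missed the threshold without the filter (limma adjusted p = 0.22) and without either shLuc library. Of 107 member values, 95 kept direction and side of the threshold, 7 turned sign and 5 came to pass it. Of 132 list medians 24 moved: that of the DNA repair targets (0.02) was −0.034 without shLuc library 2 and 0.079 without shLuc library 3, and that of the regulators (−0.02) was 0.024 without shCTCF library 2. With 2 libraries per hairpin the median half-width of the members' intervals was 0.22 on the log2 scale before adjustment, and Sesn2 and Btg2 at 0.37 and 0.36 were not called after it.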
